A study of Mus musculus with 21 samples.

Results

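The interferon response and MHC class I group held 39 genes, chosen by symbol from the 19096 genes of the deposited gene matrix, and all 39 were found. They are 4 genes of class I presentation (B2m, H2-K1, H2-D1 and Tap1), 15 antiviral effectors and their partners, 5 genes of the OAS family, 3 of the PARP9 and DTX3L pair and its relative Parp14, 6 interferon-inducible GTPases, 3 sensors of nucleic acids and 3 transcription factors. RNA was sequenced from 21 hearts of male C57BL/6NJ mice in a model that joins an obesogenic diet to renin-driven hypertension. The mice were 8 to 10 weeks old at the start, ate chow or a diet with 60% of its energy as fat over 10 weeks, and gave their hearts 6 weeks after a vector was injected behind the eye. Chow control (n = 4) and high-fat control (n = 6) hearts came from mice given a null vector per the series description, although their sample labels read "novirus". Chow renin (n = 6) and high-fat renin (n = 5) hearts came from mice given an adeno-associated virus that carries renin; its promoter and the cells it reaches are not given in the sources used here. The labels give the tissue as heart and do not say which part of it was taken. It is bulk tissue, so fewer cells of a type and less RNA per cell cannot be told apart in any value given here.

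Interferons are secreted proteins that bind receptors on nearly every cell. Type I and type III interferons signal through JAK kinases to a complex, with STAT2 and IRF9 among its subunits, that binds the interferon-stimulated response element, ISRE, while interferon gamma acts mainly through the GAS element. The genes switched on include enzymes that block viral replication, GTPases that attack vacuoles of intracellular microbes, and the class I machinery that shows peptides from inside the cell to CD8 T cells. In the heart, class I genes are expressed at rest, mostly by endothelial and immune cells, and the antiviral genes are kept low without infection or injury.

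Library totals ran from 18.7 to 29.3 M estimated reads. Every chow control library, with at most 21.4 M, was smaller than each library of the other groups, of which the smallest held 22.8 M; depth and membership of that group cannot be told apart. The 8 cardiomyocyte markers (Myh6, Tnnt2 and others) were present in every library. They summed to between 55395 and 67251 CPM (counts scaled to library size) in chow control, 51562 and 53755 in chow renin, 52408 and 61278 in high-fat control and 45444 and 52785 in high-fat renin hearts, so both renin groups lay below all chow control hearts. In 5 of the 21 libraries the atrial markers stood well above the rest: chow control replicate 3, chow renin replicates 1 and 3, high-fat control replicate 3 and high-fat renin replicate 3. In the 6 chow renin libraries the 14 central nervous tissue markers (Snap25, Gfap and others) summed to between 293 and 486 CPM, against 94.6 to 103 in chow control, 112 to 157 in high-fat control and 87.5 to 154 in high-fat renin hearts.

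B2m, H2-K1 and H2-D1 were the 3 most abundant members, and the other members lay far below them. Mean TPM over the 21 hearts, a level corrected for transcript length, was 212 ± 42.8 for B2m (SD, n = 21), 119 ± 23.7 for H2-K1 and 89.4 ± 15.7 for H2-D1. B2m makes the light chain of every class I molecule, and H2-K1 and H2-D1 make the classical heavy chains. Bst2, a membrane protein that tethers budding virions, followed at 24.1 ± 4.30 TPM, and the GTPase Iigp1 at 11.4 ± 3.54. Tap1, the other class I member, ranked 20 at 3.84 ± 0.953 TPM. The ranges of H2-K1 (78.6 to 167) and H2-D1 (65.1 to 131) overlapped across hearts, whereas the lowest H2-D1 value lay above the highest Bst2 value, 30.9. The least abundant members were Oas3, at 0.146 ± 0.0668, and Mx1, at 0.176 ± 0.174 TPM. Mx1 belongs to a family of interferon-inducible GTPases. All 39 members passed the filter on low counts that left 15216 of 23718 genes for testing.

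**Figure D1:**
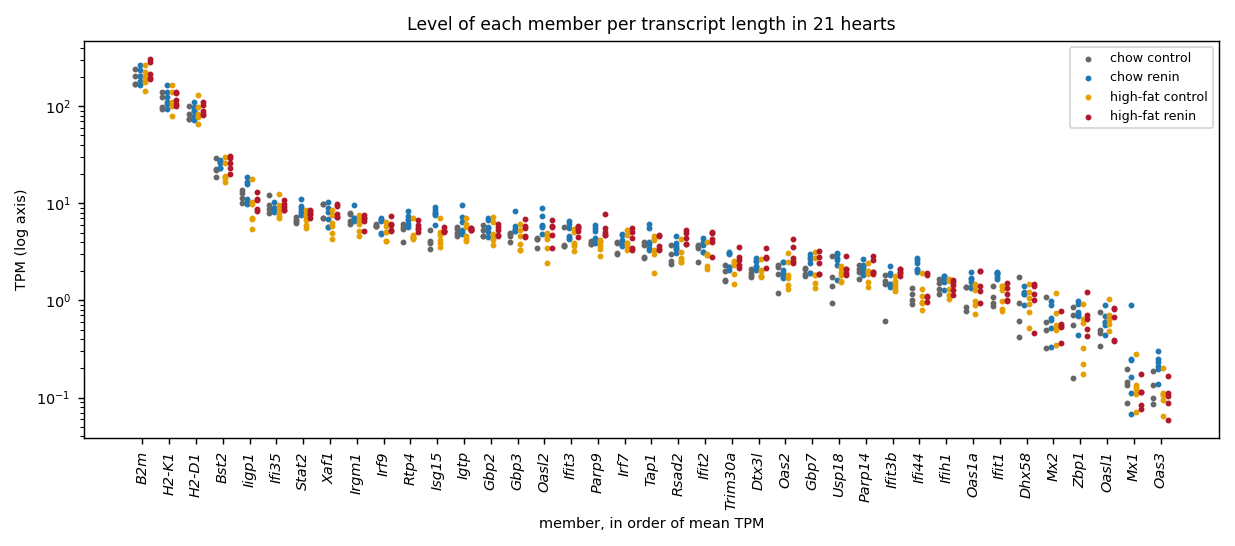
Level of each of the 39 members in TPM (log axis), in order of mean level; each point is 1 of 21 hearts, coloured by group. B2m, H2-K1 and H2-D1 lie above all other members, and the lowest 2 are Mx1 and Oas3.

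The sequences just upstream of the start site show what many of these genes have in common. Promoters from RefSeq (GRCm38.p6, 250 bases before to 50 after each start) were found by symbol for 29 of the 39 members. The ISRE core (TTTC, any 2 bases, TTTC), searched on both strands with overlapping matches allowed, was present in 17 of these 29, against 3.99% of the 27025 symbols in the same table. The GAS core TTCNNNGAA was present in 6 of 29, against 9.55% of symbols. A match describes the letters and shows no binding. The stretches below, each 5′ to 3′ on the strand of the gene, belong to called members with a core upstream of the start and, for contrast, to 3 members that were called in no comparison (B2m, Gbp2 and Oas1a); capitals mark the ISRE core on either strand.

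Rsad2 (chr12:26456523-26456592, minus strand): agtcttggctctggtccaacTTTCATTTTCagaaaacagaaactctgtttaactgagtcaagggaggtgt
Trim30a (chr7:104465194-104465249, minus strand): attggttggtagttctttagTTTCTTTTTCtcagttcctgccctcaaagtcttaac
Isg15 (chr4:156200847-156200916, minus strand): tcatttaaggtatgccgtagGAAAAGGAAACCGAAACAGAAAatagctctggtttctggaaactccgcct
Ifit1 (chr19:34640765-34640834, plus strand): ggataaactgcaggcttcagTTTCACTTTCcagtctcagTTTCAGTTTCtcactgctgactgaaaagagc
Oas3 (chr5:120777685-120777754, minus strand): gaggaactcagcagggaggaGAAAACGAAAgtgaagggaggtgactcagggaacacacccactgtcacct
B2m (chr2:122147528-122147597, plus strand): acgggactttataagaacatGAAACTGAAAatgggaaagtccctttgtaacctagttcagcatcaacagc
Gbp2 (chr3:142620584-142620653, plus strand): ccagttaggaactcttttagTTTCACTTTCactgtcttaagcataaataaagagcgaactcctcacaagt
Oas1a (chr5:120907526-120907565, minus strand): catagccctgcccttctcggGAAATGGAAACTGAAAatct

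Isg15 held 3 overlapping cores and Ifit1 held 2 separate ones, whereas Rsad2, Oas3, B2m and Gbp2 each held 1 in the stretch shown. Of the called members with a promoter entry, Dtx3l, Ifi44, Ifit2 and Oasl2 held no core in this window. Among members called in no comparison, B2m, Gbp2, Gbp3, Gbp7, Ifit3, Ifit3b, Igtp, Irgm1, Oas1a, Stat2 and Bst2 also held a core upstream of the start.

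The genes that raise the pathway's signal were barely seen in these hearts. Reads of the interferon genes Ifna1, Ifna2, Ifna4, Ifnl2 and Ifnl3 were found in no library. Ifnb1 had at most 1 read, in 2 libraries, Ifnk at most 1, Ifne at most 3 in a single library, and Ifng at most 2 in 6 libraries. Levels this low could not be compared between groups at this depth. The receptor genes were all tested: of 6, 0 were called in 5 of the 6 comparisons, and Ifngr2, a chain of the interferon gamma receptor, was lower in chow renin than in chow control hearts (log2 fold change -0.28 ± 0.09 SE, edgeR adjusted p = 0.0431), a comparison in which 13.5% of all genes were called. Without chow renin hearts, the receptor chain nearest the threshold was Il10rb, part of the type III interferon receptor (-0.26 ± 0.09 in high-fat renin against chow control, edgeR adjusted p = 0.0776). Ifngr1 (0.19 ± 0.09, edgeR adjusted p = 0.181) and Ifnar1 (0.17 ± 0.08, edgeR adjusted p = 0.183) had their lowest adjusted p between the high-fat groups.

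In high-fat renin hearts, a small set of antiviral genes was called higher than in chow control hearts. None of the 4 class I genes was called, but all 4 lay above 0. Their median log2 fold change was 0.20, against 0.17 over all members. Of 39 members, 5 were called higher and 0 lower: Rsad2, Parp9, Dtx3l, Trim30a and Oas2. In the same comparison 8.29% of all 15216 genes were called in either direction with 4.05% higher and 4.25% lower; among the members the share called was 12.8%. The share of all genes fell by more than 1.5 times in 6 of the 9 fits that leave out 1 library, those without replicates 1, 2 and 4 of chow control and replicates 1, 2 and 5 of high-fat renin, to between 565 of 15376 genes (without chow control replicate 4) and 793 of 15176. In 7 members every high-fat renin heart lay above every chow control heart, a pattern shown by 4.98% of all genes. The members' median log2 fold change was 0.17, against 0.015 over all genes, and 31 of 39 lay above 0, against 52.6% of all genes. With a clock score (the mean log2 level of clock genes that peak in the evening minus that of those that peak in the morning) as a covariate, 0 of the 39 members and 0 of all genes were called; the log2 fold changes of the 5 then ran from 0.23 (Parp9) to 0.66 (Rsad2), with edgeR adjusted p from 0.533 to 0.801. That score was 2.21 to 3.25 in high-fat renin and 3.41 to 3.73 in chow control hearts, so it and the group cannot be told apart in this comparison. In the same comparison 5 of the 8 cardiomyocyte markers were called lower and the adipose marker Cidea higher (0.54 ± 0.10, edgeR adjusted p = 0.00266), and their part in the members' rises was not tested.

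Rsad2 encodes viperin, a radical SAM enzyme that makes a chain-terminating nucleotide and hinders the budding of viruses. It lies at chr12:26442746-26456452 (GRCm38, minus strand). Normalized CPM of Rsad2 was 11.8, 11.9, 13.0 and 11.005 in the chow control hearts and 22.1, 17.9, 19.6, 17.8 and 22.1 in the high-fat renin hearts. Every high-fat renin heart was above every chow control heart. The log2 fold change was 0.74 ± 0.13 (SE), a 1.67-fold rise with edgeR adjusted p = 0.00137, and the call held when any 1 of these 9 libraries was left out. High-fat control hearts ran from 12.3 to 19.6 CPM with a median of 13.9, and chow renin hearts from 12.1 to 18.6 with a median of 15.1. Rsad2 was also higher in high-fat renin than in high-fat control hearts (0.46 ± 0.11, edgeR adjusted p = 0.0105), although high-fat control replicate 6, at 19.6 CPM, reached into the high-fat renin range. Against chow renin hearts the difference was 0.38 ± 0.11 (edgeR adjusted p = 0.0158); leaving out chow renin replicate 1 or high-fat renin replicate 1 or 5 raised that adjusted p to 0.0588, 0.0642 or 0.0515.

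Parp9 and Dtx3l encode an ADP-ribosyltransferase and an E3 ubiquitin ligase that work as a pair and add to interferon signalling. They stand head to head on chromosome 16, Dtx3l at chr16:35926511-35939151 on the minus strand and Parp9 at chr16:35938470-35972605 on the plus strand, with start sites 681 bases apart. Because their transcripts overlap on opposite strands and the strandedness of the libraries is not given in the sources used here, part of their reads cannot be told apart: 8.56% of the 31-base words of Parp9 and 9.59% of those of Dtx3l occur in another gene. Parp9 stood at 12.003, 11.5, 14.1 and 11.97 CPM in chow control hearts and at 22.9, 17.8, 15.5, 16.0 and 16.0 in high-fat renin hearts. Dtx3l stood at 11.5, 11.5, 13.0 and 12.5 CPM in chow control hearts and at 20.8, 18.7, 17.4, 14.4 and 17.6 in high-fat renin hearts. Neither pair of groups overlapped, and for both genes high-fat renin replicate 1 was the highest heart. The log2 fold changes were 0.51 ± 0.11 for Parp9 (edgeR adjusted p = 0.0079) and 0.55 ± 0.12 for Dtx3l (edgeR adjusted p = 0.00584), and both calls held when any 1 library was left out. Against high-fat control hearts, Parp9 was higher by 0.36 ± 0.10 (edgeR adjusted p = 0.0236) and Dtx3l by 0.34 ± 0.10 (edgeR adjusted p = 0.0354). Parp9 in high-fat control hearts ran from 12.6 to 14.6 CPM, below every high-fat renin heart, whereas Dtx3l ran from 11.5 to 17.96 and overlapped. When high-fat renin replicate 1 was left out, these adjusted p-values rose to 0.110 for Parp9 and 0.149 for Dtx3l, whose call was lost in 7 of the 11 fits that leave out 1 library, against 2 for Parp9. Parp14, a relative of Parp9, was not called (0.24 ± 0.11 against chow control, edgeR adjusted p = 0.188).

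Trim30a encodes a TRIM family protein that dampens signalling from toll-like receptors. It was the only member called higher in both renin groups against chow control hearts, a comparison in which both renin groups share the same 4 control hearts. Trim30a stood at 7.32, 7.22, 8.10 and 7.22 CPM in chow control hearts, between 8.69 and 10.8 with a median of 9.19 in chow renin hearts, and at 11.6, 10.7, 9.65, 9.94 and 12.5 in high-fat renin hearts. All renin hearts were above all chow control hearts. Trim30a rose on the log2 scale by 0.54 ± 0.11 in high-fat renin (edgeR adjusted p = 0.00409) and 0.34 ± 0.11 in chow renin hearts (edgeR adjusted p = 0.0327). The first held with any 1 library left out, and the second was lost in 5 of 10 such fits, with adjusted p up to 0.0886. High-fat control hearts ran from 7.10 to 10.7 CPM, and the difference of high-fat renin from them was 0.31 ± 0.10 (edgeR adjusted p = 0.0384), a call lost in 6 of 11 fits that leave out 1 library. Of its 31-base words, 11.9% occur in another gene, mostly Trim30d.

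Oas2 encodes an oligoadenylate synthetase, which answers double-stranded RNA by making the messenger that activates RNase L. Oas2 stood at 10.2, 8.22, 5.35 and 6.93 CPM in chow control hearts and at 13.5, 12.1, 11.1, 10.2 and 16.4 in high-fat renin hearts. The highest chow control heart lay just under the lowest high-fat renin heart. Oas2 rose by 0.72 ± 0.19 on the log2 scale (edgeR adjusted p = 0.024), and leaving out any 1 of 5 libraries ended the call, with adjusted p up to 0.0829 without chow control replicate 4. Against chow renin hearts, which ran from 7.06 to 10.4 CPM, Oas2 was higher by 0.59 ± 0.17 (edgeR adjusted p = 0.0128), which rose to 0.0524 without high-fat renin replicate 5.

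Ifit2, whose product binds viral RNA and slows translation, was called in high-fat renin hearts against high-fat control hearts. Its CPM was 20.3, 18.9, 16.3, 13.4 and 21.5 in high-fat renin hearts and 10.9 to 17.1 with a median of 12.7 in high-fat control hearts. The groups overlapped, since the lowest high-fat renin heart lay below the highest high-fat control heart. Ifit2 rose by 0.45 ± 0.12 on the log2 scale (edgeR adjusted p = 0.0188), and when high-fat renin replicate 1 or 5 was left out it became 0.0710 or 0.0742. Against chow control hearts, at 11.6, 14.9, 15.6 and 14.01 CPM, the difference was 0.37 ± 0.13 and was not called (edgeR adjusted p = 0.0924).

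Among hearts of mice fed the high-fat diet, 5 members were higher with renin than without it (Rsad2, Parp9, Dtx3l, Trim30a and Ifit2) and 0 were lower. Over all genes, 11.1% were called in this comparison in either direction, with 6.07% higher and 5.08% lower, and 12.8% of the members were called. The count over all genes fell to 696 of 15189 without high-fat renin replicate 1, 934 of 15176 without replicate 2 and 784 of 15170 without replicate 5. The median log2 fold change of the members was 0.05, against -0.006 over all genes, and 30 of 39 lay above 0, against 48.9% of all genes. In only 2 members, Parp9 and Ifit3b, did the 5 high-fat renin hearts all lie above the 6 high-fat control hearts, a pattern shown by 1.95% of all genes; Ifit3b was not called (0.30 ± 0.17, edgeR adjusted p = 0.279). When only these 2 groups were fitted, 1 of the 5 calls was left, Rsad2 (edgeR adjusted p = 0.0392), and calls over all genes also fell, to 549 of 14403. With the clock score as a covariate 0 of the 39 members and 8 of all genes were called. In that score high-fat control hearts, at 3.16 to 3.54, overlapped high-fat renin hearts, at 2.21 to 3.25, only narrowly. The log2 fold changes were then 0.41 for Rsad2, 0.32 for Ifit2, 0.29 for Trim30a, 0.23 for Dtx3l and 0.18 for Parp9. Of the 8 cardiomyocyte markers 5 were called lower and 1 higher. The atrial marker Nppa (2.40) and the clock gene Arntl (0.62) were called higher. Cox6a2 of the plasmacytoid dendritic cell list (-0.31) and the clock genes Hlf (-0.59) and Tef (-0.24) were called lower. The part of all these in the members' rises was not tested.

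**Figure D2:**
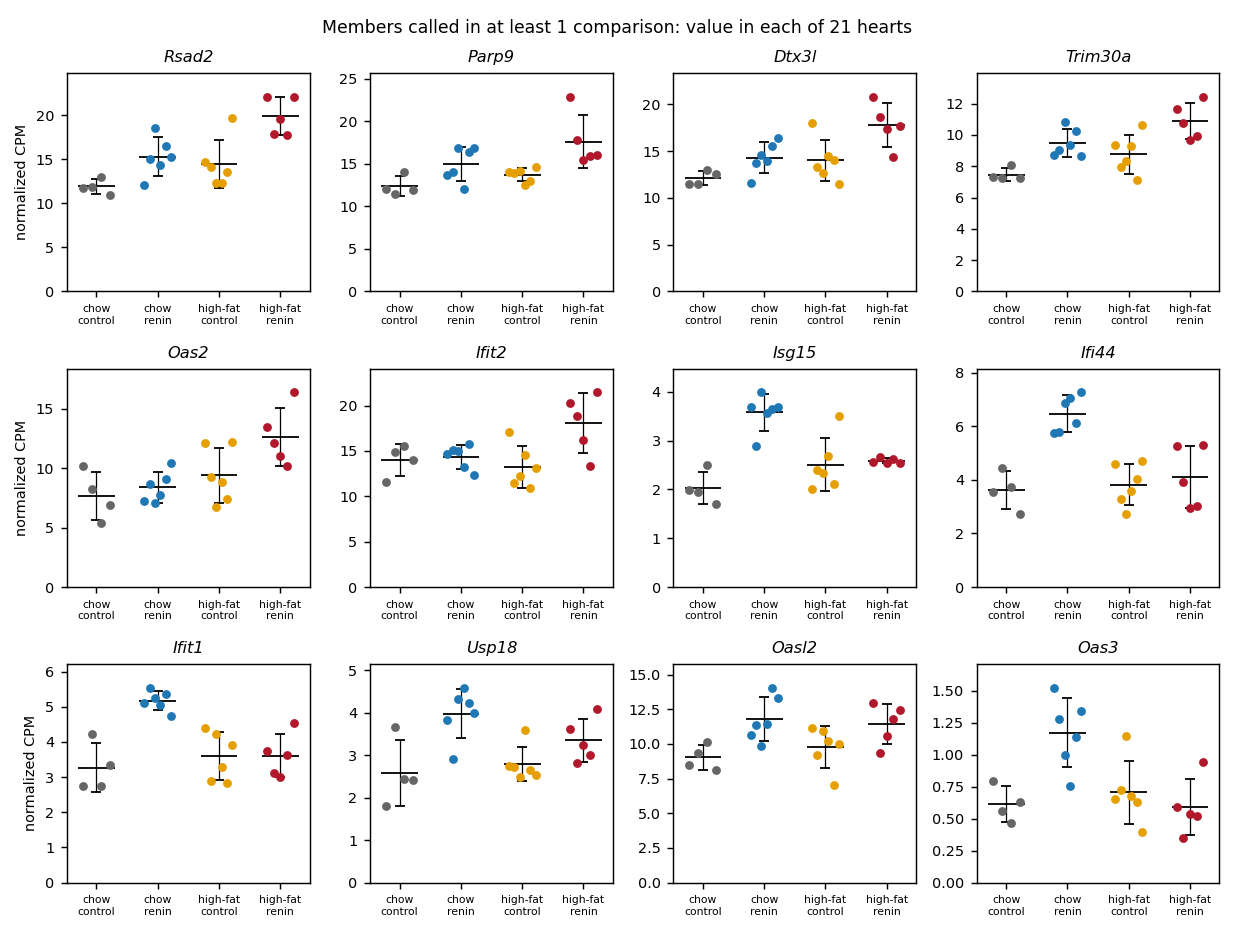
Normalized CPM of the 12 members called in at least 1 comparison; each point is 1 heart, the bar is the group mean and the error bar is 1 SD. Rsad2, Parp9, Dtx3l, Trim30a and Oas2 are highest on average in high-fat renin hearts, and Isg15, Ifi44, Ifit1, Usp18, Oasl2 and Oas3 in chow renin hearts.

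In chow renin hearts, 7 of the 39 members were called higher than in chow control hearts and 0 lower: Isg15, Ifi44, Ifit1, Usp18, Oasl2, Oas3 and Trim30a. Trim30a was also called in high-fat renin hearts, and Trim30a, Usp18 and Oasl2 were not called between the renin groups. Over all genes 13.5% were called in either direction, with 10.1% higher and 3.36% lower (1625 of 1889 calls higher with upper-quartile factors, against 1537 of 2048), and 17.9% of the members were called. In 4 members (Isg15, Ifi44, Ifit1 and Trim30a) the 6 chow renin hearts all lay above the 4 chow control hearts, a pattern shown by 10.4% of all genes. The members' median log2 fold change was 0.21, against -0.03 over all genes, and 33 of 39 lay above 0, against 44.4% of all genes. In the same hearts 13 of the 14 central nervous tissue markers were called higher, with a median log2 fold change of 2.25. With the mean level of those markers added to the fit as a covariate, 0 of the 39 members were called and 30 of all genes were. The log2 fold changes of 5 of the 7 were larger with that covariate than without it (Ifi44 1.81, Ifit1 0.95, Usp18 1.096, Oasl2 0.65 and Trim30a 0.57), Isg15 stood at 0.79, and Oas3 came to -0.07. No chow renin heart overlapped the other groups in that marker level, so the marker level and the chow renin group cannot be told apart. With the clock score as a covariate 2 of the 7 calls were left, Isg15 and Ifit1, and 1596 of all 15216 genes were called. That score, 2.93 to 3.26 in chow renin hearts, also lay below all chow control hearts and cannot be told apart from the group; of its 14 genes Arntl and Npas2 were called higher and Ciart and Dbp lower. Of the 8 cardiomyocyte markers 2 were called lower.

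Isg15 encodes a ubiquitin-like protein that is joined to other proteins and also secreted. It lies at chr4:156199424-156200818 (GRCm38, minus strand). Isg15 stood at 1.99, 1.94, 2.49 and 1.70 CPM in chow control hearts, between 2.88 and 3.99 with a median of 3.67 in chow renin hearts, between 2.01 and 3.51 with a median of 2.36 in high-fat control hearts, and at 2.57, 2.67, 2.55, 2.62 and 2.55 in high-fat renin hearts. All chow renin hearts were above all chow control hearts, and the 5 high-fat renin hearts lay close together below them. Chow renin exceeded chow control hearts by 0.82 ± 0.16 (edgeR adjusted p = 0.000573), a call that held with any 1 of 10 libraries left out. Each value rests on few reads, between 35 and 48 in chow control and 79 and 109 in chow renin hearts, and 13.1% of its 31-base words occur in another gene. High-fat renin hearts were lower than chow renin hearts by 0.47 on the log2 scale (log2 fold change -0.47 ± 0.14, edgeR adjusted p = 0.0188).

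Ifi44, an interferon-induced protein of the cytoplasm, stood at 3.54, 4.44, 3.74 and 2.71 CPM in chow control hearts and between 5.75 and 7.27 with a median of 6.50 in chow renin hearts. Ifit1, which binds RNA that lacks the cap methylation of host transcripts, stood at 2.74, 4.22, 2.75 and 3.35 CPM in chow control and between 4.73 and 5.55 with a median of 5.18 in chow renin hearts. For both genes the chow renin hearts lay above all chow control hearts. The log2 fold changes were 0.84 ± 0.18 for Ifi44 (edgeR adjusted p = 0.00203) and 0.67 ± 0.16 for Ifit1 (edgeR adjusted p = 0.00373), and both held with any 1 library left out. In high-fat renin hearts Ifi44 stood at 5.27, 3.90, 2.94, 3.03 and 5.30 CPM and Ifit1 at 3.75, 3.13, 3.01, 3.63 and 4.53. These values lay below all chow renin hearts, with log2 fold changes of -0.66 ± 0.17 for Ifi44 (edgeR adjusted p = 0.00515) and -0.52 ± 0.14 for Ifit1 (edgeR adjusted p = 0.00914). Of the 31-base words of Ifit1, 10.4% occur in another gene, mostly Ifit1bl2.

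Usp18 encodes the protease that removes ISG15 from proteins and also blocks the type I interferon receptor. It stood at 1.79, 3.67, 2.44 and 2.42 CPM in chow control hearts and between 2.92 and 4.59 with a median of 4.11 in chow renin hearts. The groups overlapped through chow control replicate 2. Usp18 rose by 0.63 ± 0.18 on the log2 scale (edgeR adjusted p = 0.0169), and without chow control replicate 1 or 4 its adjusted p came to 0.0977 or 0.0564. In high-fat renin hearts Usp18 stood at 3.62, 2.82, 3.23, 2.999 and 4.08 CPM, and its difference from chow control was not called (0.38 ± 0.18, edgeR adjusted p = 0.206).

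Oasl2 and Oas3 are members of the OAS family; OASL2 is a synthetase with a ubiquitin-like tail. Oasl2 stood at 8.47, 9.33, 10.1 and 8.14 CPM in chow control hearts, between 9.87 and 14.1 with a median of 11.4 in chow renin hearts, and at 13.0, 9.35, 10.6, 11.8 and 12.5 in high-fat renin hearts. Its log2 fold change in chow renin hearts was 0.38 ± 0.12 (edgeR adjusted p = 0.0414), and in high-fat renin hearts it was 0.34 ± 0.13 (edgeR adjusted p = 0.102). Oas3 stood at 0.797, 0.555, 0.467 and 0.630 CPM in chow control and between 0.752 and 1.52 with a median of 1.21 in chow renin hearts, from as few as 9 reads in a library. Both genes overlapped between chow control and chow renin hearts. The log2 fold change of Oas3 was 0.93 ± 0.30 (edgeR adjusted p = 0.0434), and the call of each gene was lost in 7 of the 10 fits that leave out 1 library. With the nervous tissue covariate the log2 fold change of Oas3 turned to -0.07 (edgeR adjusted p = 0.989).

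Between the renin groups the direction split by gene. High-fat renin hearts had 4 members higher than chow renin hearts (Rsad2, Oas2, Ifit2 and Dtx3l) and 4 lower (Isg15, Ifi44, Ifit1 and Oas3). The log2 fold change of Oas3 was -0.99 ± 0.27 (edgeR adjusted p = 0.011), with high-fat renin hearts at 0.590, 0.348, 0.538, 0.523 and 0.942 CPM. That of Dtx3l was 0.32 ± 0.10 (edgeR adjusted p = 0.030) and that of Ifit2 was 0.33 ± 0.12 (edgeR adjusted p = 0.0472). The calls of Dtx3l and Ifit2 were lost in 7 and 9 of the 11 fits that leave out 1 library. Of 39 members 22 lay above 0, against 53.3% of all genes. The 8 members called are 20.5% of the 39, and 22.6% of all genes were called here (9.8% higher and 12.8% lower), so the share is near that of all genes. With upper-quartile factors 844 of 3091 calls over all genes were higher, against 1491 of 3440, and the higher calls numbered 812, 865 and 703 without chow renin replicate 1, chow renin replicate 3 and high-fat renin replicate 1. In Isg15, Ifi44 and Ifit1 the groups did not overlap, a downward pattern shown by 9.78% of all genes. With the nervous tissue covariate 0 of these 8 remained called, and the log2 fold change of Dtx3l turned to -0.24 (edgeR adjusted p = 0.986). Those of Isg15 (-0.44), Ifi44 (-1.47) and Ifit1 (-0.75) were as large or nearly so as without it, whereas Oas3 came to -0.17, Oas2 to 0.31, Rsad2 to 0.06 and Ifit2 to 0.02. In the same comparison 13 of 14 central nervous tissue markers were called lower, 3 of 8 endothelial markers (Kdr, Emcn and Tek) higher, and of 8 cardiomyocyte markers 4 lower and 2 higher. The fibroblast marker Col1a2 (0.92), the adipose marker Cidea (0.49) and Tcf4 of the plasmacytoid dendritic cell list (0.27) were called higher. Pacsin1 of that same list (-1.62) and the clock genes Ciart, Hlf and Per1 were called lower. The part of all these in the members' differences was not tested.

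Whether diet altered the response to renin was tested as an interaction, the renin difference among high-fat hearts minus that among chow hearts. Of 39 members, 2 were called and both were lower, Isg15 (-0.77 ± 0.21, edgeR adjusted p = 0.0197) and Ifit1 (-0.66 ± 0.21, edgeR adjusted p = 0.0459); 10.4% of all genes were called, 7.3% as lower (281 of 1481 calls higher with upper-quartile factors, against 478 of 1589). The renin difference of Isg15 was 0.82 among chow hearts and 0.05 among high-fat hearts, and that of Ifit1 was 0.67 and 0.01. Nervous tissue markers (Snap25 -2.51, Gfap -2.65 and others) and Pacsin1 of the plasmacytoid dendritic cell list (-1.75) were also called lower in the interaction. The cardiomyocyte markers Actc1 (0.66) and Ttn (0.42) were called higher, and the part of all these was not tested. With the nervous tissue covariate 0 of 39 members were called: the interaction was then -0.74 for Isg15 and -0.96 for Ifit1, with edgeR adjusted p = 0.999 for both. Ifi44 (-0.75 ± 0.25, edgeR adjusted p = 0.0574) and Oas3 (-1.19 ± 0.42, edgeR adjusted p = 0.0703) were not called. For Rsad2 the interaction was 0.10 ± 0.17 (edgeR adjusted p = 0.791), with an approximate 95% interval from -0.23 to 0.42, which leaves room for a difference in either direction. Leaving out chow control replicate 4 raised the adjusted p of Isg15 to 0.0528, and the call of Ifit1 was lost in 15 of 21 such fits. With all libraries thinned at random to the smallest total, Isg15 was called in 9 and Ifit1 in 7 of 12 draws.

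**Figure D3:**
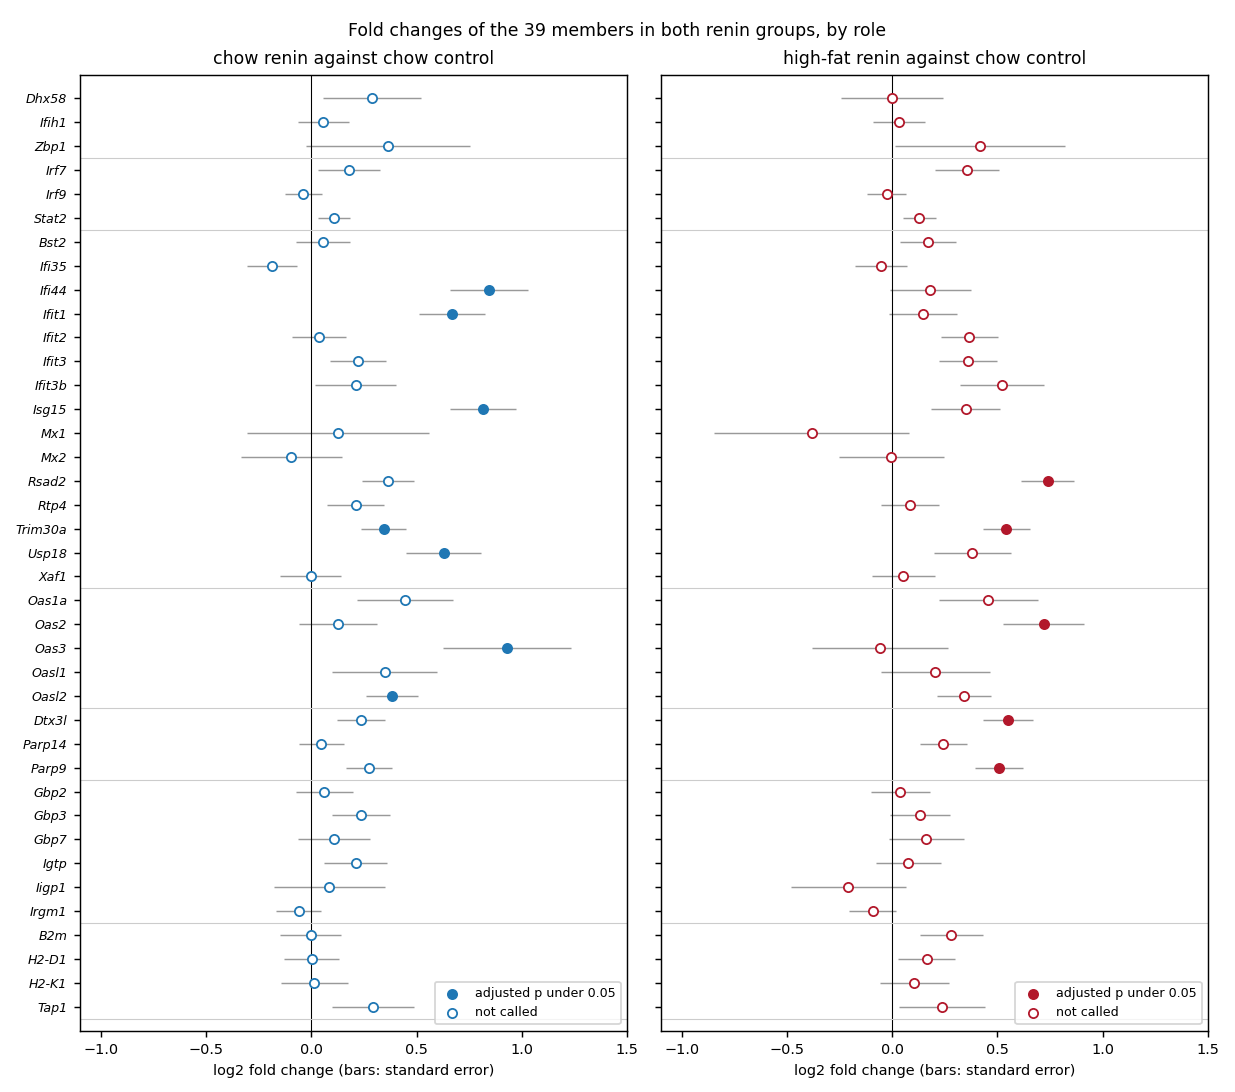
Log2 fold change of each of the 39 members in chow renin (left) and high-fat renin hearts (right) against the same 4 chow control hearts, ordered by role; bars are 1 standard error and filled points have an adjusted p under 0.05. In chow renin hearts 7 members are filled, among them Isg15, Ifi44 and Ifit1, and in high-fat renin hearts 5, among them Rsad2, Parp9 and Dtx3l.

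The high-fat diet alone moved no member past the threshold. Of 39 members, 0 were called in high-fat control against chow control hearts by edgeR and 0 by DESeq2, while 3 (Irf7, Rsad2 and Trim30a) had an unadjusted p under 0.05, as did 11.0% of all genes; 0.0657% of all genes were called. Those 10 calls became 124 with DESeq2, 57 without high-fat control replicate 4 and 0 to 3 without any other 1 library. Irf7, the transcription factor that amplifies type I interferon production, had the lowest adjusted p of the members (0.35 ± 0.15, edgeR adjusted p = 0.39). It stood at 6.18, 7.44, 6.59 and 6.50 CPM in chow control hearts and between 6.21 and 11.6 with a median of 8.26 in high-fat control hearts, which overlapped. The median log2 fold change of the members was 0.12, against 0.009 over all genes, and 32 of 39 lay above 0, against 52.4% of all genes.

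Class I presentation genes were called in none of the 6 comparisons. B2m stood at 118, 119, 163 and 148 CPM in chow control hearts, between 113 and 167 with a median of 132 in chow renin, between 120 and 188 with a median of 147 in high-fat control, and at 183, 159, 134, 143 and 212 in high-fat renin hearts. All 4 groups overlapped. Against chow control hearts, B2m in high-fat renin hearts differed by 0.28 ± 0.15 (edgeR adjusted p = 0.263), with an approximate 95% interval from -0.01 to 0.57. The intervals of the same comparison were -0.22 to 0.43 for H2-K1, -0.10 to 0.43 for H2-D1 and -0.16 to 0.63 for Tap1, the peptide pump of the endoplasmic reticulum. These intervals do not reach a doubling, but they allow rises that these groups could not separate from the spread between hearts. H2-K1 and H2-D1 share part of their sequence, with 22.8% and 26.9% of their 31-base words found in another gene, so reads may be split between them.

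Class I genes varied together between hearts of the same group. B2m, H2-K1, H2-D1 and Tap1 were all highest in chow renin replicate 3, in high-fat control replicate 6 and in high-fat renin replicate 5, and all lowest in high-fat control replicate 5 and high-fat renin replicate 3. The highest high-fat control heart had 1.78 times the H2-K1 level of the lowest, 214 against 120 CPM. Over all 39 members, class I genes included, 21 were highest within their group in high-fat control replicate 6 and 21 in high-fat renin replicate 5. In chow renin replicate 3 and in chow control replicate 3, 17 each were highest. High-fat control replicate 1 held 14 of the highest values of its group, 0 of them of class I genes. The 12 macrophage markers summed to 223 CPM in high-fat control replicate 6, the highest of its group, but to 155 in high-fat renin replicate 5, against 178 in replicate 1 of that group. The 8 endothelial markers were highest of their group in both of these hearts, at 1032 and 977 CPM, and not in chow renin replicate 3, at 721 against 841 in replicate 6. The part of these cells in the shared highs was not tested.

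**Figure D4:**
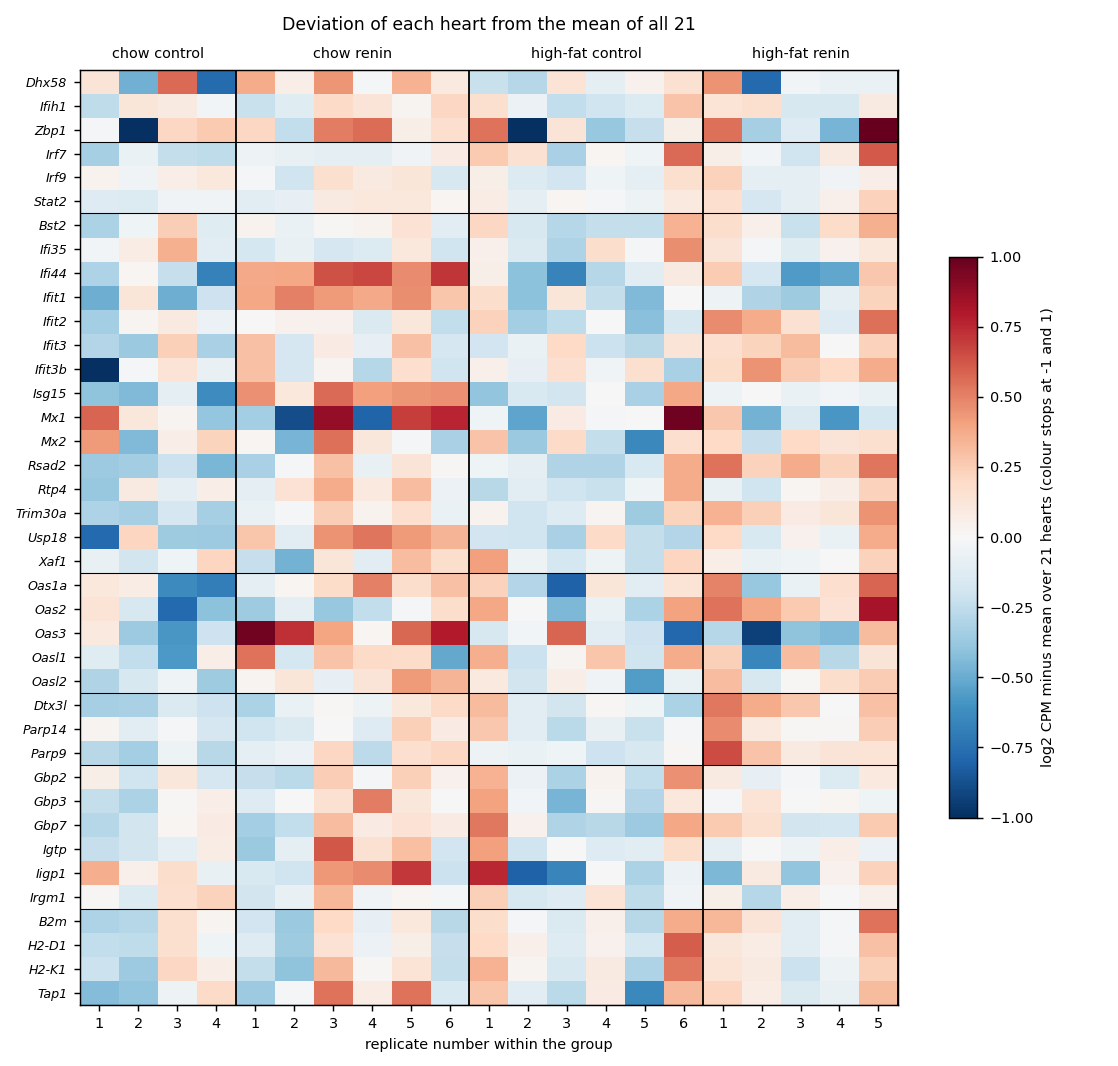
Difference of each heart from the mean of all 21 in log2 CPM, for the 39 members ordered by role (rows) and the hearts ordered by group and replicate (columns); colour stops at -1 and 1. High-fat control replicate 6 and high-fat renin replicate 5 are red in most rows, and Isg15, Ifi44 and Ifit1 are red across the 6 chow renin hearts.

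**Figure D5:**
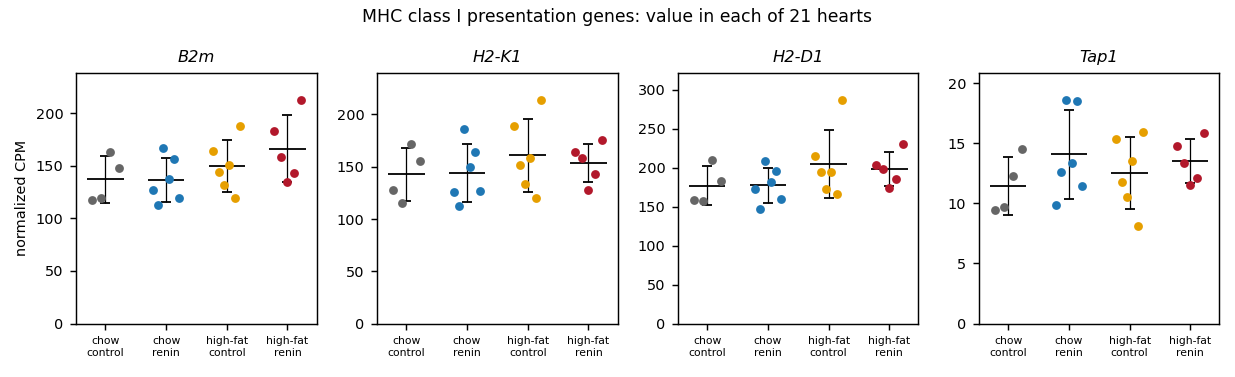
Normalized CPM of the 4 class I presentation genes; each point is 1 heart, the bar is the group mean and the error bar is 1 SD. All 4 groups overlap for each gene, as in B2m from 113 to 167 in chow renin and from 134 to 212 in high-fat renin hearts.

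The interferon-inducible GTPases, the sensors and the transcription factors were also called in no comparison. Of the GTPases Gbp2, Gbp3, Gbp7, Igtp, Irgm1 and Iigp1, which are better known as interferon gamma targets, the log2 fold changes in high-fat renin against chow control ran from -0.21 (Iigp1) to 0.16 (Gbp7), with a median of 0.06. The sensors Ifih1 and Dhx58, which bind double-stranded RNA, and Zbp1, which binds Z-form nucleic acid, ran from -0.0008 to 0.42. Zbp1 had the widest standard error of these, 0.40. Stat2 and Irf9, which encode subunits of the complex that binds the ISRE, gave 0.13 ± 0.08 and -0.03 ± 0.09, and Irf7 gave 0.36 ± 0.15 (edgeR adjusted p = 0.153). The other effectors Ifit3, Ifit3b, Bst2, Rtp4, Xaf1, Ifi35, Mx1 and Mx2, and the OAS genes Oas1a and Oasl1, were called in no comparison. Among these, Ifit3 (0.36 ± 0.14, edgeR adjusted p = 0.105) and Ifit3b (0.52 ± 0.20, edgeR adjusted p = 0.106) were nearest the threshold in high-fat renin against chow control hearts. Ifit3 and Ifit3b share 61.8% and 55.2% of their 31-base words with other genes, almost all with each other, and Oas1a shares 68.8%, so their values are uncertain.

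The rest of the pathway was read from lists of related genes, whose counts stand beside 8.29% of all genes called in high-fat renin against chow control hearts and 11.1% against high-fat control hearts. In the first comparison 1 of 51 other interferon-stimulated genes was called, a share below that of all genes: Eif2ak2, the kinase PKR that stops translation on double-stranded RNA, was higher by 0.42 ± 0.12 (edgeR adjusted p = 0.0277). Of the 51, 2 were called against high-fat control hearts, also a smaller share than that of all genes: Eif2ak2 was higher (0.32 ± 0.10, edgeR adjusted p = 0.0468) and Ifi205, a member of the DNA-binding p200 family, was lower (-0.48 ± 0.15, edgeR adjusted p = 0.0397). Of 10 genes of JAK-STAT signalling and its inhibitors, Ptpn6, a phosphatase that restrains cytokine receptors, was higher than in chow control hearts (0.61 ± 0.18, edgeR adjusted p = 0.0337). Against high-fat control hearts Stat3 was higher (0.29 ± 0.08, edgeR adjusted p = 0.0163) and Pias1, a SUMO ligase, was lower (-0.23 ± 0.07, edgeR adjusted p = 0.0323). Of 7 other interferon regulatory factors, Irf8, which acts in myeloid cells, was higher than in chow control hearts (0.57 ± 0.15, edgeR adjusted p = 0.0208). Of 11 other GTPases tested, Gbp6 was higher than in high-fat control hearts (0.87 ± 0.23, edgeR adjusted p = 0.0229).

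Other class I presentation genes did not move as a block. Of 23 tested, 1 was called in high-fat renin against chow control hearts, where 8.29% of all genes were, and 3 against high-fat control hearts, a share near the 11.1% of all genes. Psme1, a subunit of the proteasome activator PA28 that interferon gamma induces, stood at 85.3, 81.0, 72.3 and 89.1 CPM in chow control hearts, between 69.5 and 86.7 in high-fat control hearts, and at 57.7, 59.9, 60.8, 66.2 and 54.3 in high-fat renin hearts. All high-fat renin hearts lay below all hearts of both control groups. The log2 fold changes were -0.45 ± 0.08 against chow control (edgeR adjusted p = 0.0011) and -0.40 ± 0.07 against high-fat control (edgeR adjusted p = 0.0015). Psme2, its partner subunit, was lower (-0.24 ± 0.08, edgeR adjusted p = 0.0441) and Psmb10, a catalytic subunit of the immunoproteasome, was higher (0.39 ± 0.10, edgeR adjusted p = 0.0164) against high-fat control hearts. In the lists of nucleic acid sensing (12 tested) and class II presentation (9 tested), 0 were called in either of these comparisons. Within these comparisons the lowest adjusted p of each list came against high-fat control hearts. It was that of the RNA sensor Tlr3 (0.28 ± 0.10, edgeR adjusted p = 0.0826) and of H2-DMa, which helps load class II molecules (-0.45 ± 0.22, edgeR adjusted p = 0.186).

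Markers of immune cells were read beside the members. The 12 macrophage markers summed to between 142 and 178 CPM in high-fat renin and between 132 and 190 in chow control hearts, and 0 of the 12 were called between these groups. In chow renin against chow control hearts 1 of the 12, Mrc1, was called lower (-0.47 ± 0.14, edgeR adjusted p = 0.0284). Only 3 of 13 T and NK lymphocyte markers passed the filter, and all 13 summed to at most 4.05 CPM in any heart. Of 6 neutrophil markers 4 were tested, and Ly6g was at 0 in all libraries. The 6 summed to between 2.80 and 4.13 CPM in chow control and between 2.88 and 4.36 in chow renin hearts. In high-fat control hearts the sum was 2.48 to 4.12 and in high-fat renin hearts 2.82 to 5.78. Of 8 plasmacytoid dendritic cell markers 6 were tested. These are markers of a cell known for making type I interferon, and their mean log2 level was 3.14 to 3.36 in chow renin hearts, above all other hearts (2.37 to 2.87 in chow control, 2.52 to 3.10 in high-fat control and 2.64 to 2.95 in high-fat renin). The 8 summed to between 593 and 889 CPM, most of it Cox6a2, a subunit that striated muscle also uses, at 477 to 758 CPM. The 2 called higher in chow renin against chow control hearts were Pacsin1, which neurons also express (1.90 ± 0.18, edgeR adjusted p = 4.4e-08), and Runx2 (1.15 ± 0.24, edgeR adjusted p = 0.0014). Runx2 was also called higher in high-fat renin against chow control hearts (0.86 ± 0.25, edgeR adjusted p = 0.0343), where Cox6a2 was called lower (-0.28 ± 0.08, edgeR adjusted p = 0.0268). Siglech, a defining marker, reached at most 0.475 CPM in any heart, and the part of these cells in the members' rises was not tested. The 9 clock genes that peak in the evening (Per1, Dbp and others) had a mean log2 level between 5.49 and 5.84 in high-fat renin hearts and between 5.93 and 6.17 in chow control hearts, and 4 of the 9 were called lower.

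The authors' deposited table gives their own comparison for high-fat diet plus virus, without naming its reference group. In the authors' deposited table, 4 of the 39 members had an adjusted p under 0.05: Dtx3l (log2 fold change 0.43, adjusted p = 0.0015), Rsad2 (0.47, 0.0020), Parp9 (0.35, 0.0089) and Oas2 (0.34, 0.039). Trim30a followed in the authors' deposited table with 0.27 and an adjusted p of 0.054.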

How the data were processed

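Per the submitters' processing notes, reads were quantified with Salmon 1.10.2 on GRCm38 (mm10), and DESeq2 1.40.2 was used. The authors deposited a transcript table per library with expected counts (estimated, not normalized) and TPM, and a gene matrix of signal close to TPM times a factor per library, together with their own log2 fold changes and adjusted p-values. Transcripts were matched by ID to GENCODE M21 (98.0% matched; 0.854% to 0.925% of reads were not) and expected counts were summed to genes and rounded, in place of the raw counts the tests had been laid out for. The members and lists were chosen with earlier results of these data known. edgeR 4.0.16 (R 4.3.3; TMM factors 0.886 to 1.09; filterByExpr; quasi-likelihood F test, robust; 1 fit over 21 libraries) gave log2 fold changes, whose SE is the absolute value over the square root of F; Benjamini-Hochberg adjustment ran over 15216 genes, and called means an adjusted p under 0.05. Intervals are the fold change ± 1.96 SE. The fit was tested on simulated data. CPM are TMM-normalized. Members called in any comparison are described heart by heart; pathway genes are named if called in a comparison without chow renin hearts or, where a list has none, for its lowest adjusted p. Alternatives were DESeq2 1.42.0, limma 3.58.1 on log2(signal + 1), other scaling, no filter, fewer groups, covariates, a replicate block and each library left out. Each library was taken as 1 mouse, since the series text gives 4 to 6 mice per group.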

Additional observations from a re-analysis of the deposited data

Results flagged for a closer look

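Among 64 sets of a member and a group, 3 hearts stood far from the rest of their group; chance alone gives about 1 in 20. Rsad2 was at 19.6 CPM in high-fat control replicate 6, against 12.3 to 14.7 in the other 5 hearts. Trim30a was at 8.10 CPM in chow control replicate 3, against 7.22 to 7.32 in the other 3. Usp18 was at 3.59 CPM in high-fat control replicate 4, against 2.49 to 2.75 in the other 5. The renin effect differed between diets, by a test of the difference, for Isg15 (interaction -0.77 on the log2 scale) and for Ifit1 (-0.66), where 10.4% of all genes were called. The call of Ifit1 was lost in 15 of 21 fits that leave out 1 library and that of Isg15 in 1, and both were lost with the nervous tissue covariate.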

How the results depend on the processing

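Depth separates chow control hearts, nervous tissue markers separate chow renin hearts and the clock score separates both renin groups from chow control hearts. None of these can be told apart from the group. Between the high-fat groups the clock score overlapped only from 3.16 to 3.25. No member was called in high-fat control against chow control hearts under any setting tried. In high-fat renin against chow control hearts the 5 called members became 0 with the clock covariate and 3 with limma on the deposited signal, and 4 to 6 when 1 library was left out. In chow renin against chow control hearts the 7 became 2 with the clock covariate, 0 with the nervous tissue covariate, 3 with limma and 3 to 8 with 1 library left out. For renin within the high-fat diet the 5 became 1 when only these groups were fitted, 0 with the clock covariate, 3 with the nervous tissue covariate, 2 with limma and 1 to 7 with 1 library left out; without high-fat renin replicate 1 it was 1. In high-fat renin against chow renin hearts the 8 became 5, 0 and 5 with these 2 covariates and limma, and 4 to 8 with 1 library left out. The interaction's 2 became 1 without a filter, 0 with the nervous tissue covariate, 1 with limma and 0 to 4 with 1 library left out. The nervous tissue covariate reversed Oas3 in chow renin against chow control (log2 fold change -0.072) and Dtx3l in high-fat renin against chow renin hearts (-0.24). Same-numbered libraries of different groups correlated at a median of 0.08 (28 pairs, -0.23 to 0.42), and 7 of 21 correlated best with their own number, so the numbers were not taken as pairing. With a replicate block the calls were 5 in high-fat renin and 4 in chow renin against chow control, 4 against high-fat control, 6 between the renin groups and 0 for the interaction. Over all genes the calls moved too: for high-fat renin hearts limma called 761 of 19096 against the chow controls and 881 against the high-fat controls, and with 1 library left out the counts ran from 565 to 1723 and from 696 to 2394. In chow renin against chow control hearts limma called 1688, and the counts ran from 1512 to 2268 with 1 library left out. Between the renin groups limma called 2623, and the counts ran from 2473 to 3667. Over the called members, 365 of these alternatives kept the call, 147 lost it and 2 reversed it; the cause was not tested. Libraries were also thinned at random to the smallest total in 12 draws, an alternative chosen after seeing the data. The calls were then 5 in every draw in high-fat renin against chow control hearts, 5 to 8 in chow renin against chow control, 3 to 5 for renin within the high-fat diet, 5 to 8 between the renin groups and 0 to 4 for the interaction. The interaction of Isg15 was called in 9 of the 12 draws and that of Ifit1 in 7.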
